A study of Xenopus laevis with 30 samples.

Results

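The gene pfkfb3 encodes 6-phosphofructo-2-kinase/fructose-2,6-bisphosphatase 3, a regulator of glycolysis. In Xenopus laevis, the African clawed frog, whose genome holds an L and an S copy of many genes, it was listed as pfkfb3.L and pfkfb3.S. These 2 rows were taken by their gene names out of 17321 genes listed at 1 or both stages. The gene was chosen by its dorsal over ventral differences at stage 12, where both copies were higher in dorsal half-embryos. Every comparison that uses the stage 12 dorsal or ventral libraries is therefore given as a description without a test. The tests below use stage 10.5, and at stage 12 the left, right and whole libraries.

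PFKFB enzymes make and remove fructose 2,6-bisphosphate, an allosteric activator of phosphofructokinase-1, the enzyme that commits glucose carbon to glycolysis. Among the isoenzymes, mammalian PFKFB3 has a kinase activity that far exceeds its phosphatase activity, so its presence favours glycolytic flux. In mammalian cells its gene is a target of the hypoxia-inducible factor HIF-1, the protein is phosphorylated by AMP-activated kinase, and it is degraded through the APC/C-Cdh1 and SCF-βTrCP ubiquitin ligases. The early frog embryo lives on maternal yolk, glycogen and amino acids. Its dorsal side holds the Spemann organizer, the signalling centre from which neural and axial tissue is patterned.

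Poly(A) RNA of 30 libraries from embryos of the Nasco strain was sequenced, with 3 libraries in each of 5 groups at 2 stages, early gastrula (10.5) and late gastrula (12). The groups were left, right, dorsal and ventral half-embryos and undivided whole embryos. Half-embryos were separated at stage 8 in Barth's solution and grown on in a dilution of it. Whole embryos are taken here to have been kept in dilute Marc's Modified Ringer, which the growth protocol gives for embryos. The labels name no mutation and no added agent for any group. On this reading half-embryos differed from whole embryos in medium as well as in bisection, and the parts of these cannot be told apart. The labels do not say whether replicates came from separate clutches or how many embryos a library pooled, so the spread behind the p-values is that of these libraries and may be technical in part.

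Depth and labels were checked first. Reads assigned to listed genes numbered 2526910 to 5071874 in half-embryos and 2091772 to 2920488 in whole embryos of stage 12. For stage 10.5 they numbered 3814623 to 5813109 in half-embryos and 3532883 to 3739329 in whole embryos. Marker genes went with the labels: the summed level of 24 organizer genes was 1735 to 2019 RPKM in dorsal and 319 to 443 RPKM in ventral half-embryos at stage 10.5, and that of 18 ventral genes was 548 to 782 RPKM dorsally and 1257 to 1720 RPKM ventrally. RPKM is a read count scaled to gene length and to library size, so that levels can be compared between genes. Organizer genes were uneven among the sagittal half-embryos, with 345 RPKM in left replicate 2 at stage 12 and 621 RPKM in right replicate 2 at stage 10.5. The other left and right libraries held 1282 to 1630 RPKM at stage 12 and 951 to 1782 RPKM at stage 10.5.

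Both copies were among the more abundant messengers of the gastrula. At stage 12 pfkfb3.L rested on 220 to 1217 reads per library and pfkfb3.S on 230 to 1003, and at stage 10.5 on 599 to 2351 and 816 to 2202. By group mean at stage 12, pfkfb3.L lay in the top 6.25% of listed genes in dorsal, 19.7% in ventral and 5.17% in whole embryos. At stage 10.5 it lay in the top 3.93% in dorsal, 9.04% in ventral and 2.85% in whole embryos. The copy pfkfb3.S lay in the top 10.3%, 25.8% and 12.9% in dorsal, ventral and whole embryos at stage 12. At stage 10.5 it lay in the top 6.30%, 10.7% and 4.32%. Counting error averaged 2.45% to 5.83% of a value in the groups. It was below the spread between replicates in every group except pfkfb3.L in ventral half-embryos at stage 12, where replicates differed by 3.25% (SD over mean) and counting error was 5.66%.

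Stage 10.5 shows whether the gene already differed between the sides of the embryo at the start of gastrulation. The copy pfkfb3.L was listed at 122.1, 105.0 and 106.5 RPKM in the 3 dorsal half-embryo libraries, against 63.0, 69.8 and 42.7 RPKM in the ventral ones. Each dorsal library was above each ventral library. The mean was 111 ± 9.44 RPKM dorsally and 58.5 ± 14.1 RPKM ventrally (SD, n = 3 each), a ratio of 1.90, and the difference on the log2(RPKM + 1) scale was 0.94 ± 0.21 (SE). With limma's moderated test over 16672 genes this missed the threshold of an adjusted p of 0.05 (adjusted p = 0.0540), and it passed in the fit that pairs libraries of the same replicate number (adjusted p = 0.0111) and with voom, limma's method for counts, on reads recovered from the RPKM values (adjusted p = 0.0276). In that comparison 0.6% of all genes were called higher dorsally (0.99% in either direction), and 1.13% were in the paired fit.

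The copy pfkfb3.S stood at 85.5, 59.7 and 90.4 RPKM in dorsal half-embryos and at 54.2, 55.3 and 43.5 RPKM in ventral ones at stage 10.5. The groups again did not overlap, though dorsal replicate 2 was only 1.08 times its ventral partner. Means were 78.5 ± 16.5 RPKM dorsally and 51.0 ± 6.52 RPKM ventrally, and the log2 difference of 0.60 ± 0.18 was not called (limma adjusted p = 0.281). Its 95% interval ran from 0.21 to 0.99. Within same-numbered pairs the dorsal library was the higher one in 3 of 3 for both copies, by 1.50 to 2.50 times for pfkfb3.L and by 1.08 to 2.08 times for pfkfb3.S. Fewer cells that express the gene and less of its RNA per cell cannot be told apart in such bulk samples.

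At stage 12, where the gene was noticed, pfkfb3.L was listed at 92.7, 90.1 and 74.2 RPKM in dorsal half-embryos and at 26.3, 27.7 and 27.9 RPKM in ventral ones. Means were 85.7 ± 10.03 RPKM dorsally and 27.3 ± 0.887 RPKM ventrally, a ratio of 3.14 and a log2 difference of 1.61 ± 0.20. The copy pfkfb3.S had 75.6, 47.9 and 36.9 RPKM in dorsal and 20.5, 17.9 and 19.0 RPKM in ventral half-embryos, a ratio of means of 2.79 and a log2 difference of 1.37 ± 0.22. The ventral libraries were close to each other in both copies, while the dorsal libraries of pfkfb3.S ranged from 36.9 to 75.6 RPKM, and dorsal and ventral libraries did not overlap in either copy. Of all genes 2.01% were called higher dorsally at this stage, which is given for scale, since this contrast led to the choice of the gene.

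**Figure D1:**
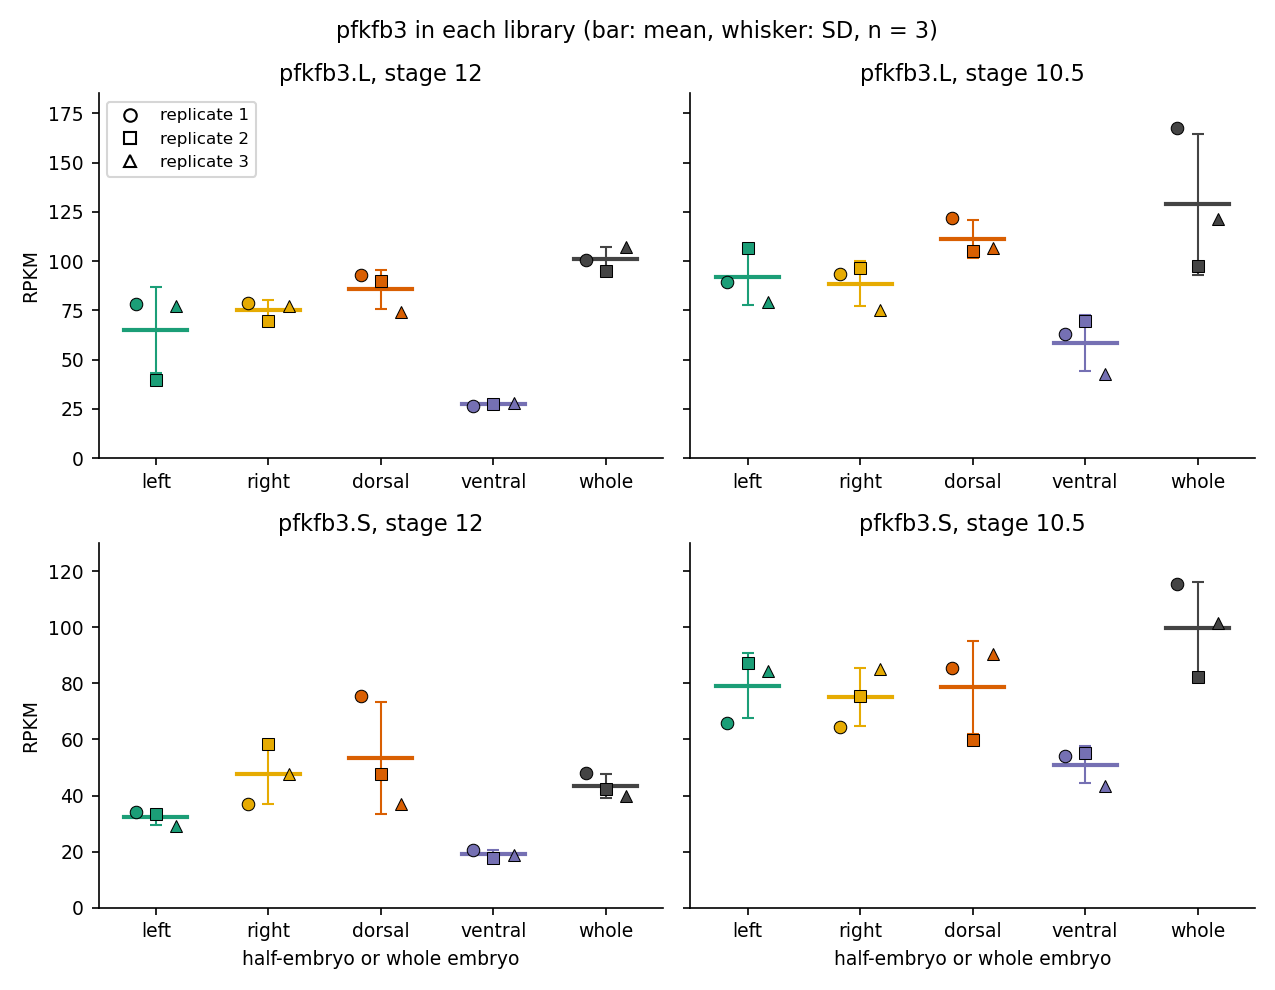
RPKM of pfkfb3.L (top) and pfkfb3.S (bottom) in each of the 30 libraries at stage 12 (left panels) and stage 10.5 (right panels), by group; symbols mark the replicate number, bars the mean and whiskers the SD of 3 libraries. Ventral half-embryos have the lowest mean in all 4 panels, with pfkfb3.L at 26.3 to 27.9 RPKM at stage 12.

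Whole embryos, the control that the labels name for each same-numbered half-embryo, give the level of the undivided embryo. At stage 10.5 pfkfb3.L was at 167.7, 97.6 and 121.1 RPKM and pfkfb3.S at 115.3, 82.3 and 101.5 RPKM in the whole-embryo libraries. Replicate 1 was the highest in both copies. All 3 ventral half-embryo libraries lay below all 3 whole-embryo libraries in each copy.

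Both copies fell in ventral half-embryos relative to whole embryos at stage 10.5. For pfkfb3.L the ventral mean was 0.454 times the whole-embryo mean of 129 ± 35.7 RPKM, a log2 difference of -1.12 ± 0.21 (limma adjusted p = 0.0187). For pfkfb3.S it was 0.511 times the whole-embryo mean of 99.7 ± 16.6 RPKM, with -0.95 ± 0.18 (limma adjusted p = 0.0226). Thus 2 of 2 copies were called lower, where 1.4% of all genes were (11.4% in the paired fit). These calls rest on few libraries: without whole replicate 1, whole replicate 3 or ventral replicate 3, neither copy was called, with limma adjusted p-values of 0.0660 to 0.0923 for pfkfb3.L and 0.0790 to 0.117 for pfkfb3.S, and pfkfb3.S also missed the threshold without ventral replicate 2 (0.0523). They were also lost in a fit of the ventral and whole libraries alone (limma adjusted p = 0.140 for pfkfb3.L and 0.0889 for pfkfb3.S). Single libraries were left out in the fit without pairing only. In the paired fit with all libraries both copies stayed called. Over 9 settings the limma or voom adjusted p ran from 0.00212 to 0.140 for pfkfb3.L and from 0.00598 to 0.0889 for pfkfb3.S.

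Dorsal half-embryos were not called different from whole embryos at stage 10.5. The log2 difference of pfkfb3.L was -0.18 ± 0.21, with a 95% interval from -0.63 to 0.27 (limma adjusted p = 0.665), and that of pfkfb3.S was -0.35 ± 0.18, with an interval from -0.74 to 0.04 (limma adjusted p = 0.280). Dorsal and whole libraries overlapped in both copies. In this comparison 3.21% of all genes were called lower (17.6% in the paired fit) and 1.01% higher.

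At stage 12 whole embryos held 100.5, 94.9 and 107.1 RPKM of pfkfb3.L and 48.2, 42.4 and 39.7 RPKM of pfkfb3.S. The ventral mean of pfkfb3.L was 0.271 times the whole-embryo mean and that of pfkfb3.S 0.441 times, log2 differences of -1.85 ± 0.20 and -1.14 ± 0.22, given without a test. Of all genes 2.51% were called lower in ventral half-embryos than in whole embryos. Dorsal over whole differences took opposite signs in the copies, -0.24 ± 0.20 for pfkfb3.L, whose dorsal libraries all lay below the whole-embryo libraries, and 0.24 ± 0.22 for pfkfb3.S, whose libraries overlapped. Of all genes 0.436% were called lower in that contrast.

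Left and right half-embryos each hold a part of the dorsal and of the ventral side. At stage 10.5 pfkfb3.L stood at 89.2, 106.8 and 79.1 RPKM in left and at 93.4, 96.5 and 75.4 RPKM in right half-embryos. The copy pfkfb3.S stood at 65.9, 87.3 and 84.3 RPKM in left and at 64.4, 75.5 and 85.1 RPKM in right half-embryos. Left and right overlapped in both copies, with log2 differences of 0.05 ± 0.21 and 0.08 ± 0.18 (limma adjusted p = 1.00 for both). Between left and right 0 genes (0%) were called at either stage, with limma on log2(RPKM + 1) or with voom. At an unadjusted p of 0.05 or less in the limma fit without pairing were 107 of 16672 genes at stage 10.5 and 219 of 15594 at stage 12. Both shares lie below 0.05, the share that alike groups of independent libraries would give on average. For this contrast the fit without pairing was thus conservative.

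The mean of left and right was set against whole embryos in 1 contrast. At stage 10.5 the log2 difference of pfkfb3.L was -0.49 ± 0.18, not called without pairing (limma adjusted p = 0.150) and called with it (limma adjusted p = 0.0347). That of pfkfb3.S was -0.36 ± 0.16 (limma adjusted p = 0.214). Of all genes 1.84% were called lower, and 14.6% in the paired fit. Left and right libraries overlapped whole-embryo libraries in both copies at this stage.

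Against ventral half-embryos the left and right libraries were all higher at stage 10.5, in both copies. Log2 differences were 0.63 ± 0.18 for pfkfb3.L and 0.58 ± 0.16 for pfkfb3.S, and neither passed the adjustment over all genes (limma adjusted p = 0.338 and 0.273), where 0.318% of genes were called higher (0.654% in the paired fit). Calls over all genes split into 53 higher and 19 lower with limma and 14 higher and 17 lower with voom. Against dorsal half-embryos the differences were -0.31 ± 0.18 and -0.01 ± 0.16 (limma adjusted p = 1.00 for both). With limma and with voom 0 genes were called in that contrast, and 589 were at an unadjusted p of 0.05 or less.

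At stage 12 pfkfb3.L was listed at 78.2, 39.7 and 77.0 RPKM in left and at 78.7, 69.7 and 77.4 RPKM in right half-embryos. Left replicate 2 stood apart from the other 5 libraries. That library also had the lowest summed organizer level of the sagittal half-embryos, 345 RPKM, and a neural plate marker sum of 587 RPKM against 993 to 1252 RPKM in the other left and right libraries. Its pfkfb3.S, at 33.5 RPKM, lay between those of the other left libraries, at 34.0 and 29.3 RPKM. Right replicate 2 of stage 10.5 held 621 RPKM of organizer genes and 96.5 RPKM of pfkfb3.L. The other left and right libraries of stage 10.5 held 75.4 to 106.8 RPKM of pfkfb3.L. The part of these markers in the pfkfb3.L value of left replicate 2 was not tested.

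All 6 left and right libraries of stage 12 lay below the 3 whole-embryo libraries in pfkfb3.L. The log2 difference was -0.55 ± 0.18 (limma adjusted p = 0.147), and without left replicate 2 it was -0.40 (limma adjusted p = 0.0864). The copy pfkfb3.S had 34.0, 33.5 and 29.3 RPKM in left and 37.1, 58.4 and 47.7 RPKM in right half-embryos, and overlapped whole embryos, with -0.15 ± 0.19 (limma adjusted p = 0.758). Of all genes 0.648% were called lower in this comparison, and 4.38% in the paired fit. Each left library of pfkfb3.S was below each right library, a log2 difference of -0.53 ± 0.22 that had an unadjusted p of 0.0303 in limma and an adjusted p of 1.00, and the difference of pfkfb3.L was -0.27 ± 0.20, or 0.05 without left replicate 2.

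Set against ventral half-embryos of stage 12, the mean of left and right was higher by 1.29 ± 0.18 on the log2 scale for pfkfb3.L and by 0.99 ± 0.19 for pfkfb3.S, given without a test. Of all genes 1.26% were called higher there, 197 against 111 lower with limma and 152 against 152 with voom. Set against dorsal half-embryos, the differences were -0.32 ± 0.18 and -0.39 ± 0.19, where 0% of genes were called. These comparisons share their ventral, dorsal, left and right libraries with those above.

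**Figure D2:**
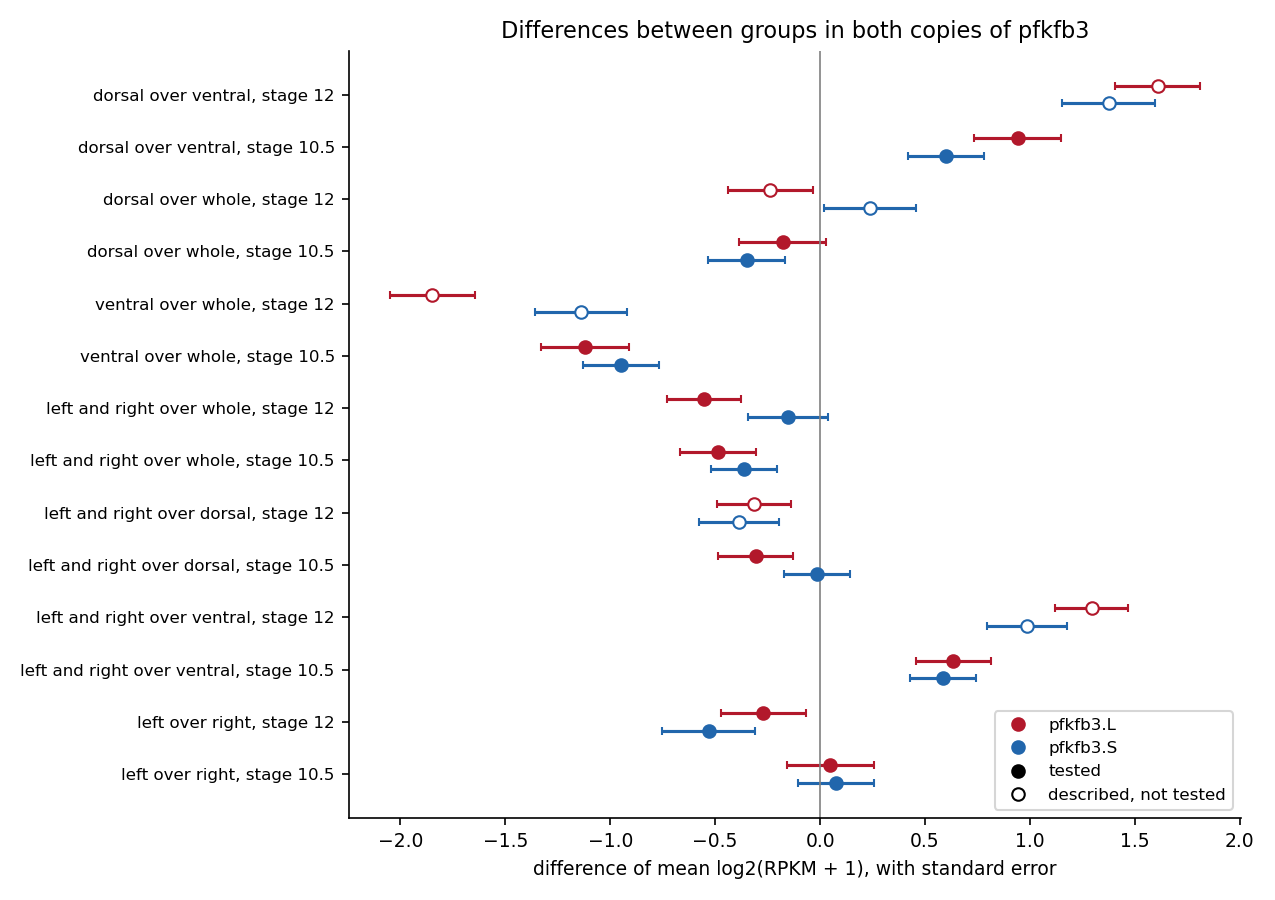
Differences of mean log2(RPKM + 1) between groups, with standard errors, for pfkfb3.L and pfkfb3.S; filled points were tested and open points are described only. Among the stage 10.5 contrasts the ventral over whole values, -1.12 and -0.95, were called without pairing.

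The order of the group means was whole, dorsal, left, right and ventral for pfkfb3.L at stage 10.5, with 129, 111, 91.7, 88.4 and 58.5 RPKM. Neighbours overlapped in their libraries, except right and ventral. For pfkfb3.S at stage 10.5 the order was whole, left, dorsal, right and ventral, with 99.7, 79.2, 78.5, 75.0 and 51.0 RPKM, and again right and ventral were the neighbours that did not overlap. At stage 12 pfkfb3.L ran from whole through dorsal, right and left to ventral, with 101, 85.7, 75.2, 65.0 and 27.3 RPKM, where the top pair and the bottom pair did not overlap. The order for pfkfb3.S at stage 12 was dorsal, right, whole, left and ventral, with 53.5, 47.7, 43.4, 32.2 and 19.1 RPKM, and whole, left and ventral were separated from each other. Ventral half-embryos came last in all 4 orders.

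Means of complementary half-embryos were set against the whole-embryo mean. For pfkfb3.L the mean of dorsal and ventral half-embryos was 56.0% of the whole-embryo mean at stage 12 and 65.9% at stage 10.5, and the mean of left and right was 69.5% at stage 12 and 69.9% at stage 10.5. For pfkfb3.S the mean of dorsal and ventral was 83.6% of the whole-embryo mean at stage 12 and 65.0% at stage 10.5, and that of left and right 92.1% at stage 12 and 77.3% at stage 10.5. Sets of the same replicate number did not all follow the means: in replicate 2 the mean of left and right was 101.6 RPKM of pfkfb3.L at stage 10.5, above the whole-embryo library at 97.6 RPKM, and 45.9 RPKM of pfkfb3.S at stage 12, above 42.4 RPKM. These are ratios of RPKM means from 3 libraries a group, the left and right over whole contrast was not called in the fit without pairing, and the whole-embryo mean of stage 10.5 includes replicate 1, the highest library of both copies.

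Stage 12 was compared with stage 10.5 in the groups that the choice of the gene did not use. The median of all genes moved by -0.26 on the log2 scale in whole embryos and by -0.22 in left and right half-embryos, so each change is also given relative to that shift. In whole embryos pfkfb3.S fell by 1.17 ± 0.21 on the log2 scale (limma adjusted p = 0.000130), to 43.4 ± 4.34 RPKM at stage 12, against 99.7 ± 16.6 RPKM at stage 10.5, with no overlap. Relative to the median gene the change was -0.91. In the same embryos pfkfb3.L changed by -0.32 ± 0.21 (limma adjusted p = 0.241), or -0.06 relative to the median gene, and its libraries overlapped.

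In left and right half-embryos pfkfb3.S fell by 0.96 ± 0.15 on the log2 scale (limma adjusted p = 1.25e-05), and all 6 libraries of stage 12 lay below all 6 of stage 10.5. Relative to the median gene the change was -0.74. By replicate number the 6 libraries of a stage form 3 sets, so they are not 6 independent samples. Libraries of the same number also went together across stages, so the stages are not independent of each other either. The consensus correlation within sets, which limma estimates over all genes after fitting the group means, was 0.417. Over 10 settings, the set as a random effect among them, the limma or voom adjusted p ran from 8.57e-06 to 0.000781. The copy pfkfb3.L changed by -0.38 ± 0.15 and was called (limma adjusted p = 0.0359), but only by -0.17 relative to the median gene, and the call was lost with voom (-0.15, adjusted p = 0.447), with upper-quartile scaling (-0.18, limma adjusted p = 0.334) and without any 1 of 6 libraries. These were left and right replicates 1 and 2 of stage 10.5 and left and right replicate 2 of stage 12, and without left replicate 2 of stage 12 the change was -0.23 (limma adjusted p = 0.148). Lower at stage 12 were 30% of all genes in whole embryos and 35.9% in left and right half-embryos, and the calls of the copies are read against that. The split of all calls depended on the scaling: in whole embryos 1820 genes were higher and 4485 lower with limma on RPKM, and 2747 were higher and 2594 lower with voom, and in left and right half-embryos 2246 and 5359, and 3765 and 3645. The fall of pfkfb3.S was called with voom too, at -0.92 in whole embryos and -0.73 in left and right half-embryos.

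The stage changes in the remaining groups are described without a test. In dorsal half-embryos the log2 change was -0.38 ± 0.21 for pfkfb3.L and -0.59 ± 0.21 for pfkfb3.S. In ventral half-embryos it was -1.04 ± 0.21 and -1.36 ± 0.21, beside shifts of the median gene of -0.20 in dorsal and -0.24 in ventral half-embryos. Genes called lower at stage 12 made up 20.4% and 26.6% of all genes there. The change between stages of the left and right over whole difference was -0.07 ± 0.26 for pfkfb3.L and 0.21 ± 0.25 for pfkfb3.S (limma adjusted p = 1.00 for both), with 95% intervals from -0.60 to 0.47 and from -0.31 to 0.74. With limma and with voom 0 genes were called for that change, 10 in the paired fit, and 792 were at an unadjusted p of 0.05 or less.

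The balance of the copies is described without a test. After the mean of each stage was removed, log2(RPKM + 1) of pfkfb3.L and pfkfb3.S had a Pearson correlation of 0.82 over the 30 libraries, which share their groups and replicate numbers. The share of pfkfb3.L in the RPKM of both copies was 54.3% to 73.0% at stage 12 (median 65.3%) and 47.0% to 63.8% at stage 10.5 (median 55.0%). In whole embryos it was 67.6%, 69.1% and 73.0% at stage 12, against 59.3%, 54.3% and 54.4% at stage 10.5, with no overlap. Over means of all libraries the share of pfkfb3.L was 8.83 percentage points higher at stage 12, and 23.7% of 2885 copy pairs listed at both stages differed by as much in either direction. Reads that match both copies could be split or dropped by the read counter, of which the sources used here say nothing, so the balance of copies is less certain than their sum.

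**Figure D3:**
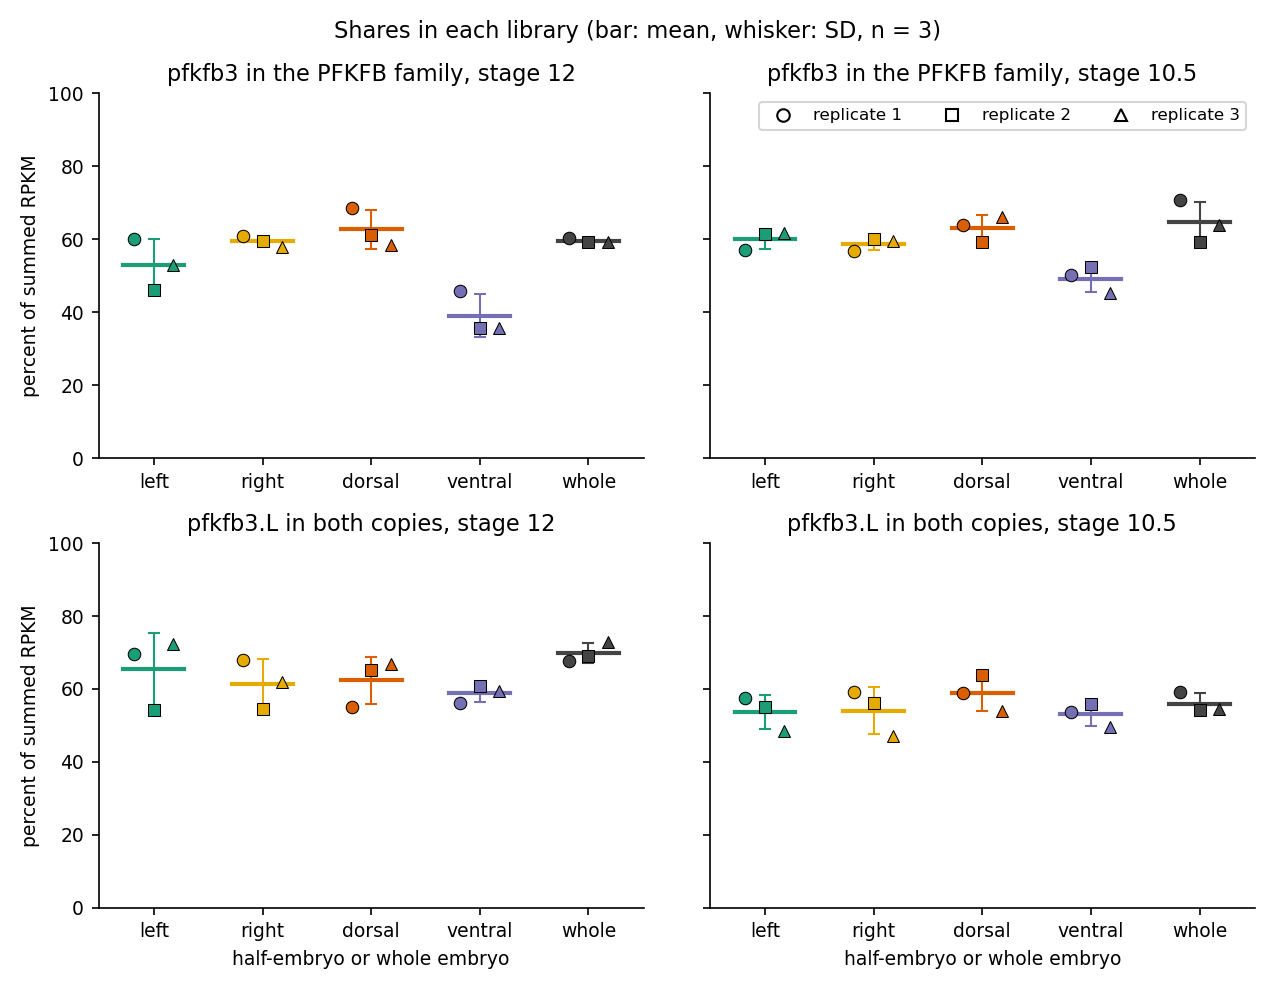
Share of pfkfb3.L and pfkfb3.S in the summed RPKM of 7 PFKFB genes (top) and share of pfkfb3.L in both copies (bottom), in each library at stage 12 (left panels) and stage 10.5 (right panels); bars are means and whiskers the SD of 3 libraries. The family share is lowest in ventral half-embryos, at 35.6% to 45.8% and 45.3% to 52.3%.

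The other PFKFB genes carry the same pair of activities in a different balance, and 5 such genes were listed. A pair of models matched to human PFKFB4, Xelaev18025735m and Xelaev18023747m, averaged 38.8 ± 2.77 and 36.5 ± 3.48 RPKM in dorsal half-embryos and 38.5 ± 1.93 and 35.1 ± 2.21 RPKM in ventral ones at stage 10.5. A pair matched to PFKFB1, Xelaev18041740m and Xelaev18003546m, averaged 21.0 ± 4.27 and 3.97 ± 1.15 RPKM dorsally and 22.0 ± 3.42 and 5.13 ± 2.00 RPKM ventrally. The gene pfkfb2.L averaged 9.99 ± 1.45 RPKM dorsally and 10.8 ± 1.01 RPKM ventrally. With limma and with voom 0 of these 5 were called for the dorsal over ventral contrast of stage 10.5, and 0 had an unadjusted p of 0.05 or less, with log2 differences from -0.27 to 0.06. Of all 16672 genes 0.99% were called there with limma and 814 had such a p.

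The share of pfkfb3 in the family was higher in each dorsal than in each ventral library of a stage. This share holds the pfkfb3 RPKM itself, so it largely restates the dorsal over ventral differences above. At stage 12 those are the ones by which the gene was chosen. The 2 copies of pfkfb3 made up 63.9%, 59.3% and 66.2% of the summed RPKM of the 7 genes in dorsal half-embryos, against 50.2%, 52.3% and 45.3% in ventral ones at stage 10.5. At stage 12 the shares were 68.5%, 61.3% and 58.3% dorsally and 45.8%, 35.6% and 35.8% ventrally. At stage 12 the family share in left, right and whole embryos averaged 53.1%, 59.4% and 59.6%, and at stage 10.5 it averaged 60.1%, 58.8% and 64.6%. The stage 12 differences of the other 5 genes between dorsal and ventral half-embryos lay between -0.09 and 0.19 on the log2 scale, beside 1.61 and 1.37 for pfkfb3.L and pfkfb3.S.

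Of the other family members, pfkfb2.L fell between stages in whole embryos, at 7.96 ± 0.537 RPKM at stage 12 and 11.6 ± 2.28 RPKM at stage 10.5 (log2 change -0.47, limma adjusted p = 0.0229), a call lost with voom, while 2 of 5 were called in the paired fit, where 53.5% of all genes were. In left and right half-embryos 3 of 5 fell, Xelaev18003546m (-0.97), Xelaev18025735m (-0.70) and Xelaev18023747m (-0.30), where 35.9% of all genes were called lower. At stage 12 Xelaev18003546m rested on only 8 to 13 reads in left and 5 to 8 reads in right libraries. The call of Xelaev18023747m did not always hold with 1 library left out (limma adjusted p up to 0.100). With voom 2 of 5 were called, and in the paired fit 5 of 5, where 61.5% of all genes were called in either direction. The 0 calls of the family between half-embryos and whole embryos, in the 4 tested comparisons of that kind, held with limma and with voom, and 0 had an unadjusted p of 0.05 or less. Of all 16672 genes at stage 10.5, 705 were called with limma and 3710 had such a p in dorsal half-embryos. The numbers were 343 and 2932 in ventral, and 452 and 3413 in left and right half-embryos. At stage 12 they were 215 and 2510 of 15594 in left and right half-embryos.

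Fructose 2,6-bisphosphate acts on phosphofructokinase-1 and on fructose-1,6-bisphosphatase, which runs the opposite reaction in gluconeogenesis. At stage 10.5 the 4 listed genes of this switch, pfkp.S, fbp1.L, fbp1.S and fbp2.L, had dorsal over ventral differences from -0.13 to 0.12 on the log2 scale. With limma and with voom 0 of 4 were called, and 0 had an unadjusted p of 0.05 or less. Among all 16672 genes 814 had such a p, and 0.99% were called with limma. Between stages fbp1.L, a fructose-1,6-bisphosphatase gene, rose to 145 ± 44.8 RPKM at stage 12 in whole embryos, against 17.4 ± 4.71 RPKM at stage 10.5 (log2 change 2.97 ± 0.40, limma adjusted p = 8.89e-06). In left and right half-embryos fbp1.L rose by 1.55 ± 0.28, while the other copy, fbp1.S, fell by 0.50 ± 0.18 (limma adjusted p = 0.0241), a call lost with voom, with upper-quartile scaling and without some single libraries (limma adjusted p up to 0.0622).

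Glycolytic enzyme genes, those of the pathway that PFKFB3 feeds into, were not called between dorsal and ventral half-embryos of stage 10.5 without pairing. Of 30 glycolytic enzyme genes tested at stage 10.5, 25 had a negative dorsal over ventral difference, and the median was -0.13, beside -0.03 over all genes tested. With limma and with voom 0 of 30 were called, where limma called 0.99% of all genes, and 1 of 30 in the paired fit (2.17% of all genes). An unadjusted p of 0.05 or less was reached by 1 of 30, and by 814 of all 16672 genes. At stage 12 19 of 30 were negative, with a median of -0.04 beside 0.02 over all genes. Among 19 genes of glucose and lactate transport the medians were 0.04 at stage 12 and -0.04 at stage 10.5, and 0 of 19 were called at stage 10.5 with either tool and 1 of 19 in the paired fit, 2 having an unadjusted p of 0.05 or less.

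Downstream of glycolysis 1 gene was called higher in dorsal than in ventral half-embryos at stage 10.5. It is pdk4.S, listed with the human match PDK2, a pyruvate dehydrogenase kinase, and such kinases limit the entry of pyruvate into mitochondrial oxidation. It stood at 66.1, 48.9 and 77.6 RPKM in dorsal half-embryos and at 36.7, 31.3 and 28.8 RPKM in ventral ones, without overlap. The log2 difference was 0.95 ± 0.18 (limma adjusted p = 0.0185), and it was the 1 call among 13 genes of pyruvate entry, as it was with voom (adjusted p = 0.0274). Of all genes 0.99% were called by limma in this contrast in either direction, and 0.6% higher dorsally. The call was lost without dorsal replicate 1 or 3 or ventral replicate 2 or 3 (limma adjusted p from 0.0622 to 0.118) and in a fit of those 2 groups alone (limma adjusted p = 0.131).

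At stage 12 pdk4.S was at 41.2, 48.4 and 52.7 RPKM in dorsal half-embryos and at 6.91, 12.5 and 10.8 RPKM in ventral ones, a log2 difference of 2.16 ± 0.27 given without a test. Left replicate 2 of that stage, the library low in pfkfb3.L, was also the lowest left or right library in pdk4.S, with 20.9 RPKM beside 33.4 to 49.8 RPKM in the other 5. The list of pyruvate entry, which also holds pyruvate dehydrogenase subunits and mitochondrial pyruvate carriers, had a median dorsal over ventral difference of -0.03 at stage 12 and 0.00 at stage 10.5.

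**Figure D4:**
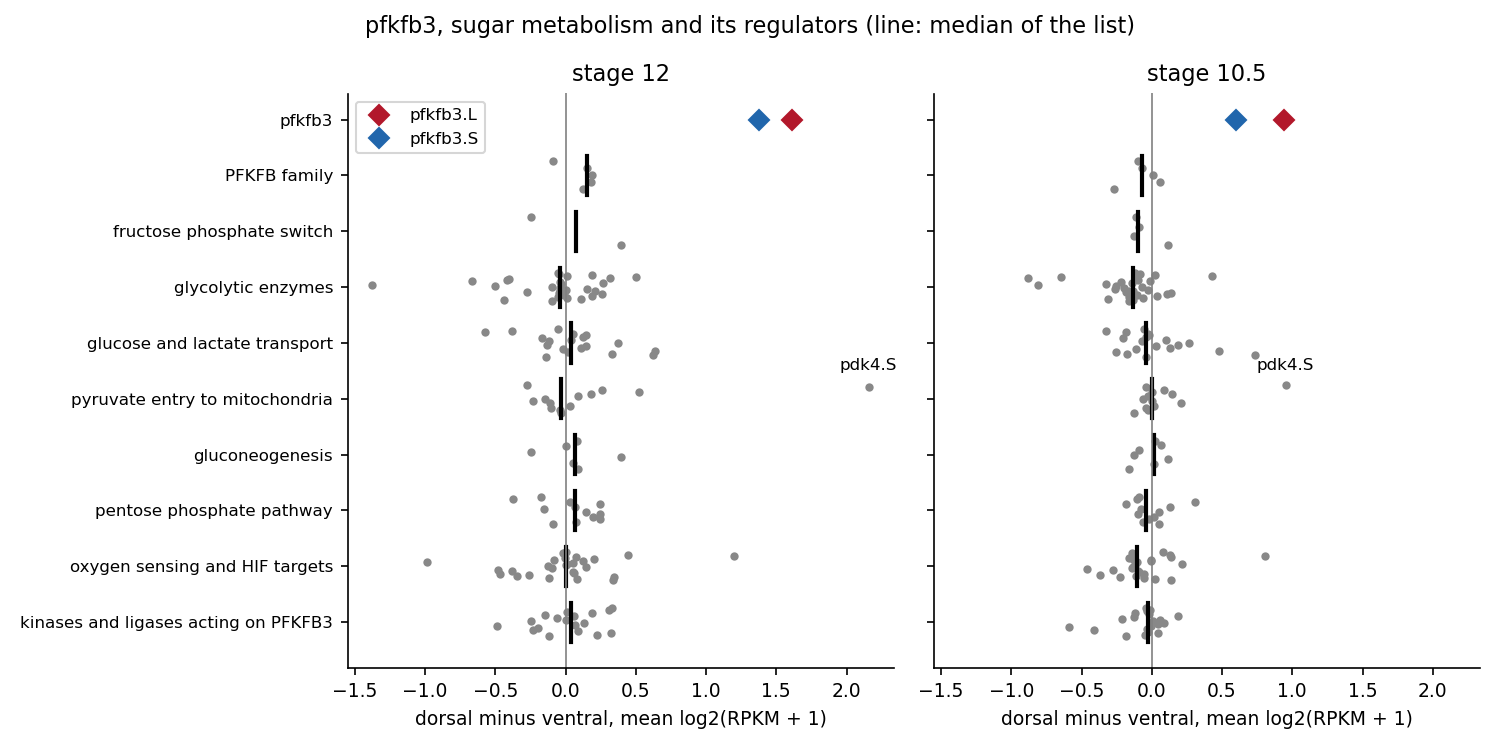
Dorsal minus ventral differences of mean log2(RPKM + 1) for pfkfb3.L and pfkfb3.S (diamonds) and for the listed genes of 9 groups (grey points, black line at the median), at stage 12 (left) and stage 10.5 (right). At stage 10.5 the median of the glycolytic enzymes is -0.13, and pdk4.S stands at 0.95 beside pfkfb3.L at 0.94.

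Genes of the pentose phosphate pathway and of gluconeogenesis, which share intermediates with glycolysis, gave 0 calls of 12 and 0 of 7 in the dorsal over ventral contrast of stage 10.5 with limma and with voom, and 0 of either had an unadjusted p of 0.05 or less. Medians were -0.04 and 0.01. Of 20 genes for kinases and ubiquitin ligases known to act on mammalian PFKFB3, 0 were called with either tool, 1 had an unadjusted p of 0.05 or less, and the median was -0.03. Among all 16672 genes in this contrast 814 had such a p, and 0.99% were called with limma.

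Oxygen sensing genes and HIF targets, to which pfkfb3 belongs in mammals, were examined for the same contrasts. Like the other lists, this one was chosen with earlier results of these data known, so its counts of calls are descriptive. Dorsally against ventrally at stage 10.5, 0 of 26 were called with limma and with voom, 2 had an unadjusted p of 0.05 or less, and the median was -0.10. Among all 16672 genes 814 had such a p, and 0.99% were called with limma. Against whole embryos at stage 10.5, 6 of 26 fell in dorsal (voom called 5 of 26) and 3 of 26 in ventral half-embryos (1 of 26 with voom). In the mean of left and right half-embryos 7 of 26 fell (voom called 7 of 26). In ventral half-embryos the 3 were ankrd37.S, mxi1.S and egln3.S, the last a HIF prolyl hydroxylase gene, at log2 differences of -2.41, -0.96 and -1.24. The call of egln3.S was lost without any 1 of the 6 libraries (limma adjusted p from 0.0505 to 0.177), and that of mxi1.S without any but ventral replicate 1 (up to 0.177), while ankrd37.S stayed called (up to 0.0297). Among the 4 dorsal calls with the smallest adjusted p, ankrd37.S stayed called without any 1 library (up to 0.0251). Those of ddit4.S, egln3.S and bnip3.L did not always hold (up to 0.0875, 0.105 and 0.122). In the mean of left and right half-embryos ankrd37.S again stayed called (up to 0.0110). There ddit4.S, bnip3.L and egln2.L did not always hold (up to 0.111, 0.118 and 0.148). In the paired fit 11 of 26 were called in dorsal, 10 of 26 in ventral and 10 of 26 in the mean of left and right half-embryos, where 25.3%, 17.4% and 22% of all genes were called in either direction. Without pairing, shares of all genes called lower in these comparisons were 3.21%, 1.4% and 1.84%.

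For ankrd37.S the mean was 0.358 ± 0.275 RPKM in dorsal, 0.465 ± 0.229 RPKM in ventral and 7.72 ± 5.51 RPKM in whole embryos at stage 10.5, so that dorsal and ventral levels were both low. The levels of pfkfb3.L in the same groups were 111, 58.5 and 129 RPKM. At stage 12, 9 of 27 oxygen genes fell in the mean of left and right half-embryos relative to whole embryos, among them egln3.L (-1.66) and egln2.L (-1.80), where pfkfb3.L and pfkfb3.S were not called. Of all genes 0.648% were called lower there, voom called 7 of 27, and the call of egln3.L was lost without whole replicate 3 (limma adjusted p = 0.0591).

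Calls among genes of glycolysis against whole embryos are read beside those of all genes. The glucose-6-phosphate isomerase gene gpi.L (-0.89) and the bisphosphoglycerate mutase gene bpgm.L (-0.90) were lower in dorsal half-embryos than in whole embryos at stage 10.5, the 2 calls among 30, where 4.23% of all genes were called in either direction. The call of bpgm.L was lost with voom and without any library but whole replicate 2 (limma adjusted p up to 0.177), and that of gpi.L without whole replicate 1 or 3 or dorsal replicate 2 or 3 (up to 0.0883). In the paired fit 9 of 30 were called, where 25.3% of all genes were. In the mean of left and right half-embryos at stage 12 gpi.1 (-0.93) and Xelaev18043771m (-0.89), a model matched to the lactate transporter SLC16A3, were lower than in whole embryos. Each was the 1 call in its list, of 30 and 19 genes. Without pairing limma called 0.648% of all genes lower there. The call of gpi.1 was lost with voom and without any library but whole replicate 2 (limma adjusted p up to 0.258). In the paired fit 5 of 30 glycolytic enzyme genes were called, where 8.48% of all genes were. In ventral half-embryos of stage 10.5, where both copies of pfkfb3 fell, limma and voom called 0 of 30 glycolytic enzyme genes. Without pairing limma called 1.4% of all genes lower there. In the paired fit 8 of 30 glycolytic enzyme genes were called, where 17.4% of all genes were. In the fit without pairing 2 of 30 had an unadjusted p of 0.05 or less, beside 2932 of all 16672 genes.

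The genes most like pfkfb3 over the 30 libraries were ranked by the Pearson correlation of log2(RPKM + 1) with the mean of both copies, after removal of the stage means, among 14945 genes. The median over genes was 0.03 and the 99th percentile 0.72. The 10 named genes with the highest values were crx.S (0.89), admp.L (0.89), crx.L (0.89), Xelaev18039840m (0.88), admp.S (0.88), irx1.L (0.88), zic1.S (0.88), sfrp2.L (0.88), Xelaev18047362m (0.88) and Xelaev18029538m (0.88). The 3 models among them were matched to human OTX2, FZD7 and CHRD, in that order. Both copies of admp, which encodes a BMP-family ligand, and the OTX2 and CHRD models stand in the organizer list, and irx1.L and zic1.S, genes of transcription factors, in the neural plate list. The libraries share their groups, and the stage 12 dorsal and ventral ones that led to the choice of pfkfb3 are among them, so the ranking is a description only. At stage 10.5 alone the correlations of these 10 genes ran from 0.73 (Xelaev18047362m) to 0.86 (sfrp2.L). At stage 12 alone they ran from 0.89 (sfrp2.L) to 0.94 (Xelaev18047362m).

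Ventral levels of these genes ranged widely. At stage 12 crx.S averaged 66.0 RPKM in dorsal, 0.544 RPKM in ventral and 93.7 RPKM in whole embryos, and admp.L 75.6, 0.159 and 48.8 RPKM. The corresponding means of pfkfb3.L were 85.7, 27.3 and 101 RPKM and those of pfkfb3.S 53.5, 19.1 and 43.4 RPKM. The FZD7 model Xelaev18047362m, with 38.1 RPKM in dorsal, 10.2 RPKM in ventral and 35.5 RPKM in whole embryos, was nearer to pfkfb3 than to crx.S or admp.L in its ventral level relative to its dorsal one.

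Organizer and neural plate marker sums had their lowest group mean in ventral half-embryos at both stages, as pfkfb3 did. The other groups did not always keep the order of pfkfb3. At stage 12 organizer genes averaged 1992 RPKM in dorsal and 1394 RPKM in whole embryos, while pfkfb3.L was highest in whole embryos. The order of pfkfb3.S at stage 12 was that of the organizer means. At stage 12 the 26 organizer genes summed to 1705 to 2294 RPKM in dorsal, 192 to 278 RPKM in ventral and 1115 to 1778 RPKM in whole embryos, with 3 of 26, gsc.L, shh.L and shh.S, at 0 in every ventral library. Neural plate genes, 19 in number, summed to 1002 to 1124 RPKM in dorsal, 334 to 480 RPKM in ventral and 909 to 1128 RPKM in whole embryos. Epidermis genes ran the other way, at 678 to 1192 RPKM in dorsal and 2641 to 4051 RPKM in ventral half-embryos. Paraxial mesoderm genes summed to 558 to 636 RPKM in dorsal and 813 to 1073 RPKM in ventral half-embryos, and endoderm genes, whose ranges overlapped, to 368 to 614 RPKM and 537 to 651 RPKM. Genes of multiciliated cells summed to 18.5 to 35.7 RPKM dorsally and 98.97 to 200.3 RPKM ventrally. Within the dorsal half-embryos of stage 12 the summed RPKM of pfkfb3 did not follow the organizer sum, since replicate 3 had the highest organizer sum (2294 RPKM) and the lowest pfkfb3.L and pfkfb3.S. The part of the makeup of tissues in the pfkfb3 differences was not tested.

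**Figure D5:**
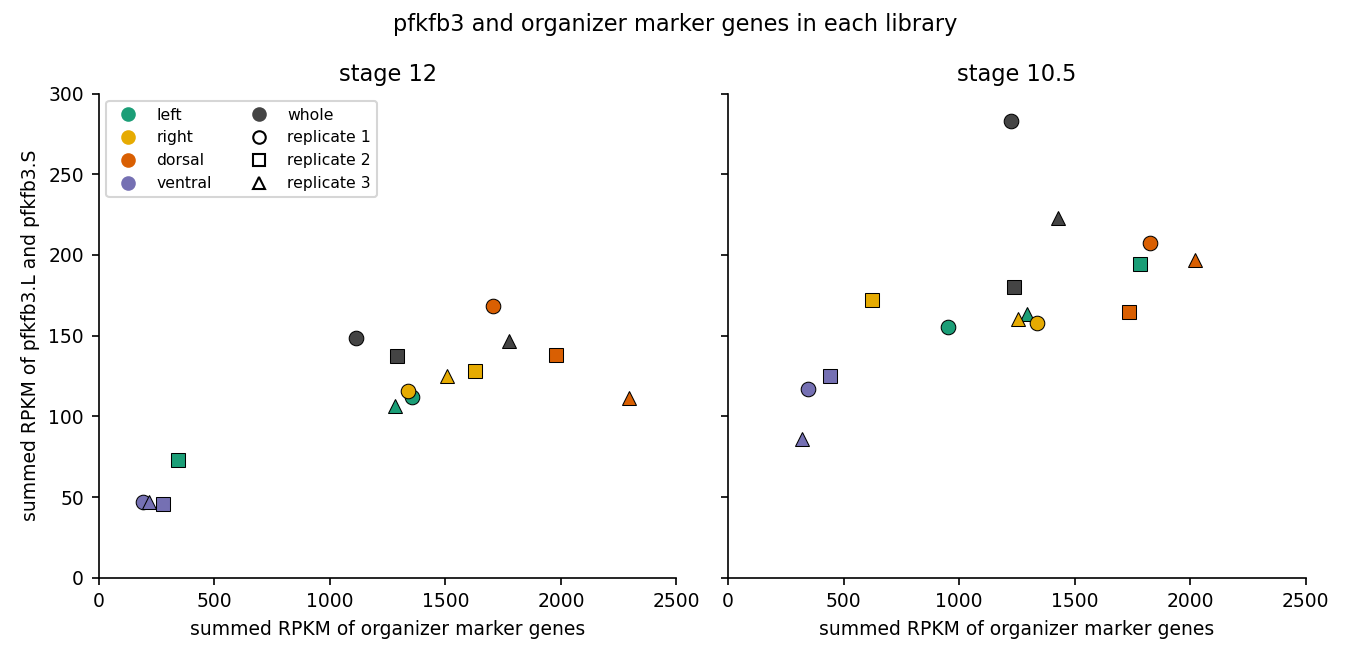
Summed RPKM of pfkfb3.L and pfkfb3.S against the summed RPKM of the organizer marker genes in each library, at stage 12 (left) and stage 10.5 (right); colours mark the group and symbols the replicate. Ventral half-embryos lie low on both axes at both stages, and left replicate 2 of stage 12, with 345 RPKM of organizer genes, lies nearest to them.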

How the data were processed

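The authors deposited RPKM values for each stage, based on the laevis annotation JGI9.1 and limited to genes with an average RPKM above 1, per the file headers. TopHat2 2.09 and DESeq are named in the submitters' processing notes, the read counter is not named in the sources used here, and the library kit does not mark strand. The choice of pfkfb3 and of the 16 gene lists was made with earlier results of these data known.

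Levels were tested as log2(RPKM + 1) with limma 3.58.1 (R 4.3.3), eBayes with trend, on genes that reached an RPKM of 1 in 3 libraries (16672 at stage 10.5, 15594 at stage 12 and 14947 for stage changes). Each stage was fitted with a mean for each of 5 groups over its 15 libraries, and stage changes over all 30. A call means a two-sided Benjamini-Hochberg adjusted p of at most 0.05 over all genes fitted. Log2 differences understate changes of genes at low RPKM. There were 12 comparisons tested and 7 described. Each tested value of pfkfb3 was recomputed with pseudocounts of 0.1 and 0.5, other filters and scalings, other fits, and without each library.

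In 100% of genes the RPKM values in a row were multiples of 1 step, which gave whole reads, with a median per gene and library of 88 (stage 10.5) and 58 (stage 12). limma's voom, with median-of-ratios library sizes, was run on those reads as a count-based alternative added after seeing the data, and it called 150 genes where the main test called 165 for dorsal over ventral at stage 10.5. The recovery of reads was tried on simulated tables. Of the fits, limma without pairing was tried on simulated counts, for dorsal over ventral at stage 10.5 alone. Those counts held no correlation between libraries of the same number, and the other fits were not tried.

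Same replicate numbers pair the samples: each control's label names the half-embryos of its own number, and deviations from group means correlated at 0.414 to 0.722 (stage 10.5) and 0.274 to 0.578 (stage 12) between libraries of the same number. The numbers also went together across stages. Deviations of number means from the stage mean correlated at 0.554 to 0.708 for the same number and at -0.42 to -0.218 for different numbers. For stage changes within a group the paired fit used the number shared by both stages. Values are from the fit without pairing unless pairing is named. That fit treats libraries of the same number as independent, which these correlations go against. A difference within a stage that it did not call may therefore be called with pairing.

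The named genes are the pfkfb3 copies, the other PFKFB genes, up to 4 called members of a list in each tested comparison, ranked by adjusted p, and the 10 genes most correlated with pfkfb3. Where a count of 5 or fewer needed other names, those were chosen after their values were seen. Model IDs were placed in lists by the human symbol the authors' tables give.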

Additional observations from a re-analysis of the deposited data

How the results depend on the processing

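Values here are log2 differences, followed by limma's adjusted p (voom's where named). Over 10 settings on the 12 tested comparisons, 210 values of the pfkfb3 copies kept their direction and side of the threshold. The dorsal over ventral difference of pfkfb3.L at stage 10.5 passed the threshold with a filter at an RPKM of 5 (0.94, 0.0442), upper-quartile scaling (0.99, 0.0298) and voom (0.99, 0.0276), with a range of 0.0111 to 0.136 over the settings. With the replicate block it also passed (0.94, 0.0111), and so did the left and right over whole difference of pfkfb3.L at stage 10.5 (-0.49, 0.0347); the block changed no other call of pfkfb3. Over all genes it raised the calls to 362 for dorsal over ventral (165 without it), 4219 for dorsal over whole (705), 2895 for ventral over whole (343), 3666 for left and right over whole (452) and 183 for left and right over ventral (72) at stage 10.5, and to 1323 for left and right over whole at stage 12 (215). For left and right over ventral at stage 10.5 voom called 31. In a fit of the compared groups alone the ventral over whole calls of stage 10.5 were lost for pfkfb3.L (-1.12, 0.140) and pfkfb3.S (-0.95, 0.0889). The fall of pfkfb3.L between stages in left and right half-embryos was not called with upper-quartile scaling (-0.18, 0.334), voom (-0.15, 0.447), the compared groups alone (-0.38, 0.0701) or the replicate set as a random effect (-0.38, 0.125). The random effect and voom were chosen after seeing the data. The planned edgeR and DESeq2 tests on the recovered reads were made but withdrawn because the deposited unit is RPKM, and voom on the same reads took their place. The outcomes of these withdrawn tests are not given and are not used as support for any call. The change between stages of the left and right over whole difference of pfkfb3.L, not called, took the other sign with quantile normalization (0.051).

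With 1 library left out, the ventral over whole difference of stage 10.5 ran from -1.30 to -0.91 for pfkfb3.L and from -1.08 to -0.84 for pfkfb3.S, and the dorsal over ventral difference of pfkfb3.L at stage 10.5 from 0.73 to 1.08, called without ventral replicate 2 (0.0427). The stage change in left and right half-embryos ran from -0.47 to -0.23 for pfkfb3.L, and its call was lost without left or right replicate 1 or 2 of stage 10.5 or left or right replicate 2 of stage 12. Differences that were not called and took both signs were dorsal over whole of pfkfb3.L at stage 10.5 (-0.36 to 0.029), left and right over dorsal of pfkfb3.S at stage 10.5 (-0.20 to 0.10), left over right at stage 10.5 of pfkfb3.L (-0.065 to 0.15) and pfkfb3.S (-0.028 to 0.20), left over right of pfkfb3.L at stage 12 (-0.43 to 0.046), and the change between stages of left and right over whole of pfkfb3.L (-0.27 to 0.11). So did the dorsal over ventral differences at stage 10.5 of Xelaev18023747m (-0.013 to 0.12), Xelaev18025735m (-0.038 to 0.063), Xelaev18041740m (-0.22 to 0.044) and pfkfb2.L (-0.18 to 0.0079). The cause of these changes was not tested. Groups of 3 libraries limit the precision, and a p that misses the threshold does not show that groups were alike.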
